A study of Mus musculus with 23 samples.

Results

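Interferon response genes were examined in tubules dissected from mouse kidneys with and without the mineralocorticoid receptor. The set held 41 genes, found by matching the Ensembl IDs of the deposited count table to a fixed list of symbols, out of 54393 genes in the table. All 41 genes had counts in all 23 libraries and passed the filter on low counts, which kept 25829 genes for testing. The single large difference was in Irf1, which was higher in knockout than in control tubules in every knockout comparison. Its call in low potassium knockouts against normal potassium controls was lost in 3 of 11 alternative settings. That call was also lost in 6 of 11 fits that left out a single library. Most of the classical antiviral genes of the set did not pass the test in any comparison.

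The libraries came from connecting tubule and cortical collecting duct, the end of the nephron in which aldosterone acts, and SMART-Seq HT and Nextera XT kits were used to make them. Mice of all groups carried Pax8-rtTA, TRE-LC-1 and MRflox/flox, that is, a doxycycline-dependent Cre whose activator is driven by the Pax8 promoter, active along the renal tubule, and floxed alleles of Nr3c2, the gene of the mineralocorticoid receptor (MR). Deletion was induced over 2 weeks by doxycycline at 2 mg/ml in water with 5% sucrose, and a washout of 2 weeks with a rescue diet followed. The knockout mice then ate a low potassium diet (KO-LK, n = 6 libraries) or the control diet with normal potassium (KO-NK, n = 6). Control mice drank 5% sucrose without doxycycline, were not induced, and ate a high potassium diet (CT-HK, n = 6) or the control diet (CT-NK, n = 5). Each diet lasted 4 days. Every knockout comparison was thus also one of doxycycline against none, and low potassium was given only to knockouts and high potassium only to controls. The labels do not say whether control mice received the rescue diet or whether each library came from a separate mouse, so the p-values describe spread among libraries, which may be technical.

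Interferons are cytokines that cells release when they sense viral nucleic acid, and they bind receptors on the same and on neighbouring cells. Type I and type III interferons act through a complex that holds STAT2 and IRF9 and binds the interferon-stimulated response element (ISRE), whereas interferon gamma acts through STAT dimers, which bind the gamma-activated sequence (GAS). The induced genes encode sensors of viral RNA, transcription factors that prolong the response, antiviral effectors and the machinery that presents antigen, and many of them keep a low level of expression in tissues without infection.

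Promoter sequences of Irf1, Ifit3b, its copy Ifit3 and Bst2, and of a pair of classical targets that did not pass the test, are shown here because they carry these elements. RefSeq promoter windows of GRCm38.p6, from 250 bases before to 50 bases after the gene's start, were available for 32 of the 41 genes and comprised 36 promoters. The letters GAAANNGAAA (ISRE) were found on either strand in 17 of the 36 promoters, belonging to 17 of the 32 genes, against 3.44% of the 32851 promoters of all genes. The letters TTCNNNGAA (GAS) were found in 8 of the 36 promoters, belonging to 8 of the 32 genes, against 8.3% of all promoters. Irf9 and Ddx58, which also passed the test in at least 1 comparison, are not shown. Both Irf9 promoters and the second Irf1 promoter held no match to either pattern. The Ddx58 promoter held 1 ISRE, which began 2 bases after the start. Capitals mark a match to either pattern on either strand, overlapping matches are joined, and each sequence is written 5′ to 3′ on the strand of its gene. The Irf1 stretch (chr11:53769874-53769953, plus strand) holds a GAS that begins 90 bases before the start and no ISRE. The Ifit3b stretch (chr19:34607747-34607826, plus) and the Ifit3 stretch (chr19:34583351-34583430, plus) were identical in 80 of 80 bases and hold 2 ISREs each. The Bst2 stretch (chr8:71537563-71537632, minus) holds 2 overlapping ISREs that also overlap a GAS. The Isg15 stretch (chr4:156200859-156200918, minus) holds 3 overlapping ISREs, and the Gbp2 stretch (chr3:142620583-142620642, plus) holds 1. These are matches of letters and not measured binding sites.
Irf1: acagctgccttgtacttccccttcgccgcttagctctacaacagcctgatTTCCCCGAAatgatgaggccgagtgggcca
Ifit3b: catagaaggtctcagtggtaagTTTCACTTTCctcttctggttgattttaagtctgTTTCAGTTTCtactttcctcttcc
Ifit3: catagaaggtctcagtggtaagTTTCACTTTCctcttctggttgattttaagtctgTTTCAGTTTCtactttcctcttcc
Bst2: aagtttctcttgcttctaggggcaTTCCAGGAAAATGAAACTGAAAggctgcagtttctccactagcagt
Isg15: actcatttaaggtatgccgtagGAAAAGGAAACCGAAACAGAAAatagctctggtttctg
Gbp2: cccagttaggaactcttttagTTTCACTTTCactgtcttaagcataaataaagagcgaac

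The targeted gene was examined first. Nr3c2 averaged 54.3 ± 15.6 CPM in KO-LK, 58.8 ± 10.4 CPM in KO-NK, 108 ± 25.8 CPM in CT-HK and 108 ± 33.2 CPM in CT-NK (SD; CPM is the count scaled to library size with TMM factors), and it was lower in KO-NK than in CT-NK by the edgeR test described below (log2 fold change -0.88, adjusted p = 0.0373). The groups overlapped in CPM, since KO-LK reached 74.1 CPM and KO-NK 71.5 CPM while the lowest CT-HK library had 70.2 and the lowest CT-NK library 66.6 CPM. On the TPM scale the Nr3c2 means were closer, with 34.1 ± 8.89 in KO-LK, 34.9 ± 5.16 in KO-NK, 38.2 ± 9.67 in CT-HK and 40.9 ± 13.5 in CT-NK. Libraries held 16158408 to 34154475 estimated counts. Markers of connecting tubule, principal cells and intercalated cells were detected in all groups. Of the 7 connecting tubule markers, 3 were called lower and 0 higher in the mean knockout. Klk1 had the highest level of them (8337 CPM in KO-LK, 7214 in KO-NK, 33544 in CT-HK and 22101 in CT-NK), whereas Trpv5 averaged 360, 236, 265 and 148 CPM in these groups. Some libraries stood apart. Proximal tubule markers summed to 37508 CPM in CT-HK replicate 6 and 20882 CPM in CT-NK replicate 5, against 302 to 9166 CPM in the others, and olfactory and vomeronasal receptor genes exceeded 2500 CPM in 5 libraries (KO-LK replicate 3, KO-NK replicates 1 and 3, CT-HK replicate 4 and CT-NK replicate 4). In such bulk samples, fewer cells of a type and less RNA per cell cannot be told apart.

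Compared per transcript length, the genes of the set differed widely in level. On the TPM scale, the authors' values per transcript length, the mean level over the 23 libraries was 194 for B2m, the invariant chain of class I major histocompatibility molecules, 84.5 for the transcription factor Irf1 and 63 for Ifi27, a small mitochondrial and nuclear envelope protein. At the other end stood Oas2 with 0.554, Mx2 with 0.51, Mx1 with 0.447 and Oas3 with 0.343 TPM. A level of 10 TPM or more was reached by 8 genes, 29 genes lay from 1 to under 10 TPM and 4 lay under 1 TPM, with a median of 3.31 TPM. The genes under 1 TPM were thus all oligoadenylate synthetases or Mx proteins, which cells raise strongly when interferon acts on them. The other oligoadenylate synthetases of the set lay above 1 TPM (Oasl2 4.27, Oas1a 2.41, Oasl1 1.32 and Oas1g 1.22).

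**Figure D1:**
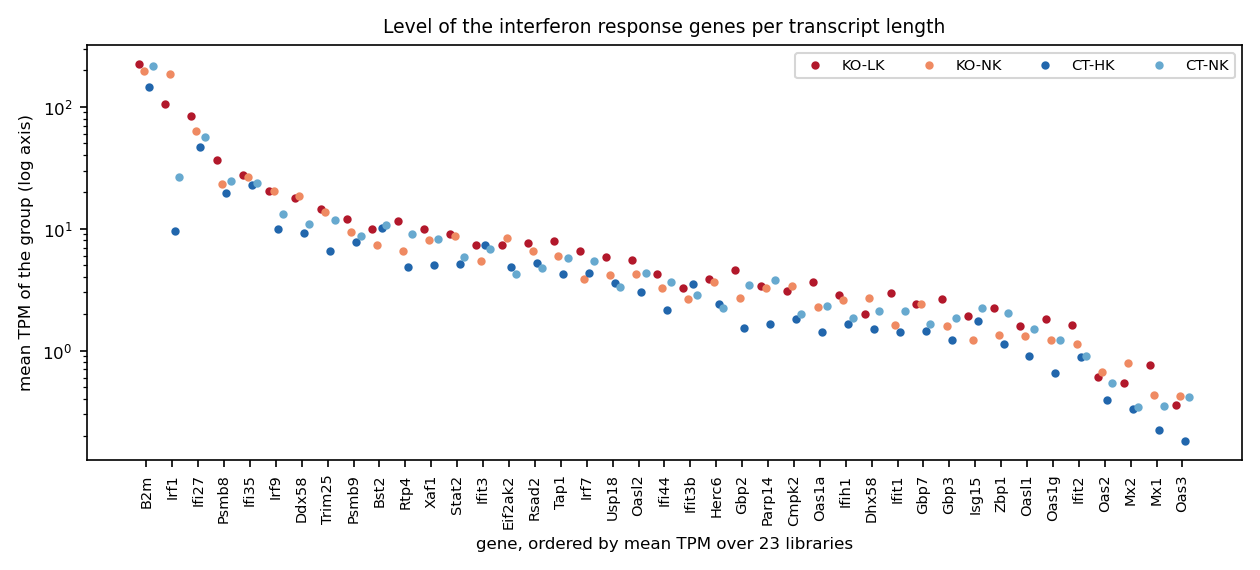
Mean TPM of each group (log axis) for the 41 interferon response genes, ordered by their mean over 23 libraries. B2m, Irf1 and Ifi27 lead with 194, 84.5 and 63 TPM, and for Irf1 the KO-LK and KO-NK points lie far above those of CT-HK and CT-NK.

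Transcripts of the interferons themselves were barely counted. Of 20 interferon genes (type I, type II and type III), 19 did not pass the filter on low counts, and the 20 together held 4 to 62 estimated counts per library, or 0.198 to 2.22 CPM. Ifnb1, the interferon that infected cells release early, had 2 counts in all over the 23 libraries, and Ifng, the product of T and natural killer cells, had 37. Ifnz had the highest mean over all libraries, and Ifnk, an epithelial interferon, had 58 counts in all. The interferon that passed the filter, Ifnl2, had a log2 fold change of 0.30 between the mean knockout and the mean control (adjusted p = 0.934).

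In KO-NK against CT-NK, the comparison that differs in genotype and doxycycline but not in potassium, 1 of the 41 genes was called, Irf1, which rose. Called here means an adjusted p under 0.05 in edgeR's quasi-likelihood test, with Benjamini-Hochberg adjustment over all 25829 genes. Of all genes tested, 1.70 percent were called in this comparison (0.937 percent higher and 0.763 percent lower), and 1 of 41 is 2.44 percent. The log2 fold change was negative for 28 of the 41 genes and positive for 13, with a median of -0.21 beside 0.15 over all genes tested. In KO-LK against CT-NK, Irf1 was again the only gene of the set called, beside 2.04 percent of all genes (0.914 percent higher and 1.13 percent lower), and the median was 0.13 beside -0.04 over all genes. These comparisons share the 5 CT-NK libraries.

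Against CT-HK the list held more calls, as did the table as a whole. In KO-NK against CT-HK, Irf1 and Irf9 rose and Bst2 and Ifit3b fell, which is 4 of 41 genes (9.76 percent), beside 5.78 percent of all genes (2.46 percent higher and 3.32 percent lower). In KO-LK against CT-HK, Irf1 and Irf9 rose (4.88 percent), beside 5.49 percent of all genes (2.20 percent higher and 3.29 percent lower). The medians of the 41 genes were -0.10 and 0.33 in these comparisons, beside 0.21 and -0.01 over all genes. With the mean of the knockout groups set against the mean of the control groups, Irf1, Irf9 and Ddx58 rose and Bst2 and Ifit3b fell (12.2 percent), beside 10.5 percent of all genes (4.67 percent higher and 5.86 percent lower), and the median was 0.05 beside 0.09. The KO-NK and KO-LK comparisons share the CT-HK libraries. In this edgeR fit the share of calls in the list was near that of all genes in KO-LK against CT-HK and in the mean knockout. It was higher in KO-NK against CT-HK, where 4 genes of the list were called.

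Neither diet comparison within a genotype called any of the 41 genes. In CT-HK against CT-NK, edgeR called 0 percent of all genes and 0 of the 41, of which 3 had an unadjusted p under 0.05, and DESeq2 called 0 of the 41 and 17 genes in all (0.0636 percent). In KO-LK against KO-NK, edgeR called 0 percent of all genes and 0 of the 41, of which 7 had an unadjusted p under 0.05, and DESeq2 called 0 of the 41 and 24 genes in all (0.0672 percent). The log2 fold change of KO-LK over KO-NK was positive for 34 of the 41 genes, with a median of 0.32 beside -0.13 over all genes, and the list's leading values here were 1.10 for Oas1g, 0.92 for Ifit1, 0.79 for Rtp4 and 0.78 for Irf7, none of them called (adjusted p = 0.928). Markers of leukocytes and macrophages had a median log2 fold change of 0.42 in the same comparison (29 tested, 0 called), and their part in the shift of the set was not tested.

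The counts of calls depended on the tool, the scale and the filter, for the set as for all genes. With limma on the deposited TPM, a setting that changes the test, the filter, the length scaling and the library scaling together, the median of all genes was 0.28 in KO-NK against CT-NK, 0.26 in KO-LK against CT-NK, 0.40 in KO-NK against CT-HK, 0.36 in KO-LK against CT-HK and 0.32 for the mean knockout, as a log2 fold change. Of its calls 95.1 to 96.8 percent were higher, where edgeR had 40.1 to 55.1 percent higher. On that scale 3, 7, 9, 23 and 17 of the 37 genes of the set that were tested were called in the same 5 comparisons, all of them higher, beside 17.5, 24.3, 29.6, 36.0 and 41.3 percent of all genes tested. The limma calls of single genes named below stand beside these shares. DESeq2 called 1, 2, 6, 4 and 7 of the 41, beside 7.31, 8.22, 14.8, 14.9 and 16.5 percent of all genes. EdgeR with a filter of 5 CPM in 5 libraries called 3, 2, 5, 6 and 8 of 32, beside 19.8, 19.3, 28.5, 25.4 and 38.2 percent. With that filter the share of the set was below that of all genes in all 5 comparisons. With limma it was above that of all genes in KO-LK against CT-HK and in the mean knockout, and below it elsewhere. With DESeq2 it was above that of all genes only in the mean knockout.

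Some genes of the set were called in these settings and not in the edgeR fit to all 23 libraries, which is the one meant below wherever edgeR is named alone. With DESeq2 and with the 5 CPM filter, Ddx58 was called as higher in KO-LK than in either control group. Ifit3 fell in KO-NK against CT-HK and in the mean knockout in both of these settings, and Ifit3b fell in KO-LK against CT-HK. With the 5 CPM filter Irf9 rose and Bst2 fell in KO-NK against CT-NK, Ifih1 and Parp14 rose in KO-LK against CT-HK, and in the mean knockout Ifih1 rose and Ifi35 fell. With edgeR on only the groups compared, Ddx58, Ifi27, Ifih1, Oas1a, Parp14 and Rtp4 rose and Ifit3b fell in KO-LK against CT-HK, where 13.9 percent of all genes were called, and Ifit3 fell in KO-NK against CT-HK, where 8.74 percent were called.

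**Figure D2:**
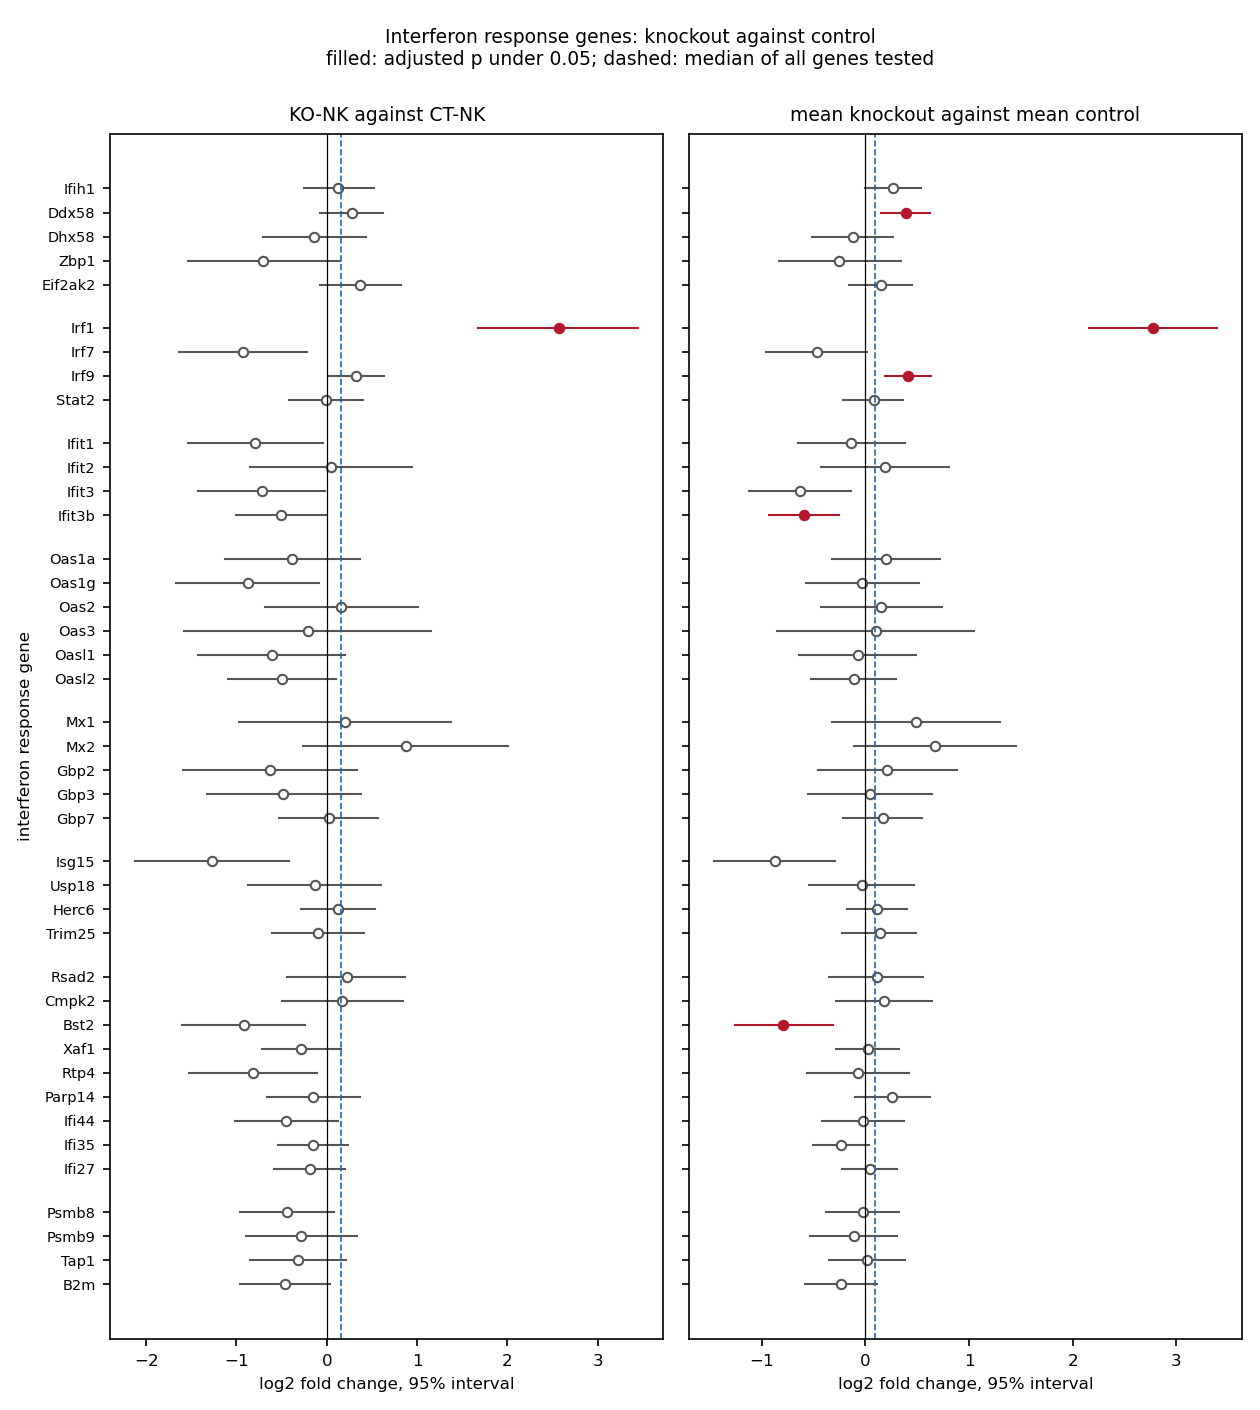
Log2 fold change with its 95% interval for the 41 genes, grouped by role, in KO-NK against CT-NK (left) and in the mean knockout against the mean control (right). Filled points are the genes with an adjusted p under 0.05, which are Irf1 on the left and Irf1, Irf9, Ddx58, Bst2 and Ifit3b on the right, and the dashed line is the median of all genes tested (0.15 and 0.09).

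Irf1 encodes interferon regulatory factor 1, a transcription factor that interferon gamma and inflammatory cytokines induce within the first hours and that activates antigen presentation genes. Irf1 (ENSMUSG00000018899, GRCm38 chr11:53770014-53778374, plus strand) had 56.5, 189 and 352 CPM in KO-LK libraries (lowest, median and highest), 226, 346 and 543 CPM in KO-NK libraries, 17, 26.6 and 30.7 CPM in CT-HK libraries, and 58.5, 64.5, 113, 44.6 and 29 CPM in the 5 CT-NK libraries. All KO-NK libraries lay above all control libraries, and all KO-LK libraries lay above all CT-HK libraries but overlapped with CT-NK. The group means were 200 ± 132, 368 ± 136, 25.3 ± 5.56 and 62 ± 31.9 CPM in KO-LK, KO-NK, CT-HK and CT-NK.

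Irf1 was 5.93-fold higher in KO-NK than in CT-NK (log2 fold change 2.57, SE 0.43, adjusted p = 0.00183), and this call held in every alternative setting and with every library left out. Against CT-HK, Irf1 was 14.5-fold higher in KO-NK (log2 3.86, SE 0.42, adjusted p = 4.53e-06) and 7.9-fold higher in KO-LK (log2 2.98, SE 0.41, adjusted p = 6.29e-05). In KO-LK against CT-NK, Irf1 was 3.23-fold higher (log2 1.69, SE 0.41, adjusted p = 0.0301). That last call was lost in a fit of only the groups compared (adjusted p = 0.0731), after dropping the 2 libraries richest in proximal tubule markers (0.0903), without the 5 libraries richest in chemosensory receptor genes (0.163), and without any 1 of KO-LK replicates 1 and 3 and CT-NK replicates 1, 2, 4 and 5 (0.0515 to 0.104). Between diets Irf1 had a log2 fold change of -0.88 in KO-LK against KO-NK (adjusted p = 0.928) and of -1.29 in CT-HK against CT-NK (adjusted p = 1), with unadjusted p of 0.0304 and 0.0036.

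Groups accounted for 82.5 percent of the variance of Irf1 between libraries on the log2 scale, against a median of 16.4 percent over the other 40 genes of the set and 12.4 percent over all genes tested. Genes known as targets of Irf1 in interferon-treated cells, named here after their values were seen, gave no call where KO-NK was set against CT-NK. The log2 fold change there was -0.28 (SE 0.29) for Psmb9, an immunoproteasome subunit, -0.32 (SE 0.26) for Tap1, the peptide transporter of antigen presentation, and -0.63 (SE 0.47) for Gbp2, a guanylate-binding protein, with adjusted p of 0.840, 0.768 and 0.734. Irf1 also rose in KO-LK against CT-HK, where the KO-LK and CT-HK means were 13 and 12.4 CPM for Psmb9. Those means were 23.3 and 18.2 CPM for Tap1 and 11.9 and 5.76 CPM for Gbp2. EdgeR called none of these targets in that comparison. Limma on TPM called each of them as higher there, beside 36.0 percent of all genes tested. The immediate early gene Fos, a subunit of the AP-1 transcription factor, averaged 4163 ± 729 CPM in KO-LK, 4994 ± 678 in KO-NK, 852 ± 375 in CT-HK and 1251 ± 769 in CT-NK, and it rose in KO-NK against CT-NK (log2 2.00, adjusted p = 0.00554). Of 3 further immediate early genes, Egr1 rose in KO-NK against CT-NK (log2 1.73, adjusted p = 0.0125), and Junb (1.23, adjusted p = 0.0989) and Atf3 (2.58, adjusted p = 0.0669) did not pass. All 4 were named after their values were seen, and their part in the Irf1 difference was not tested.

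**Figure D3:**
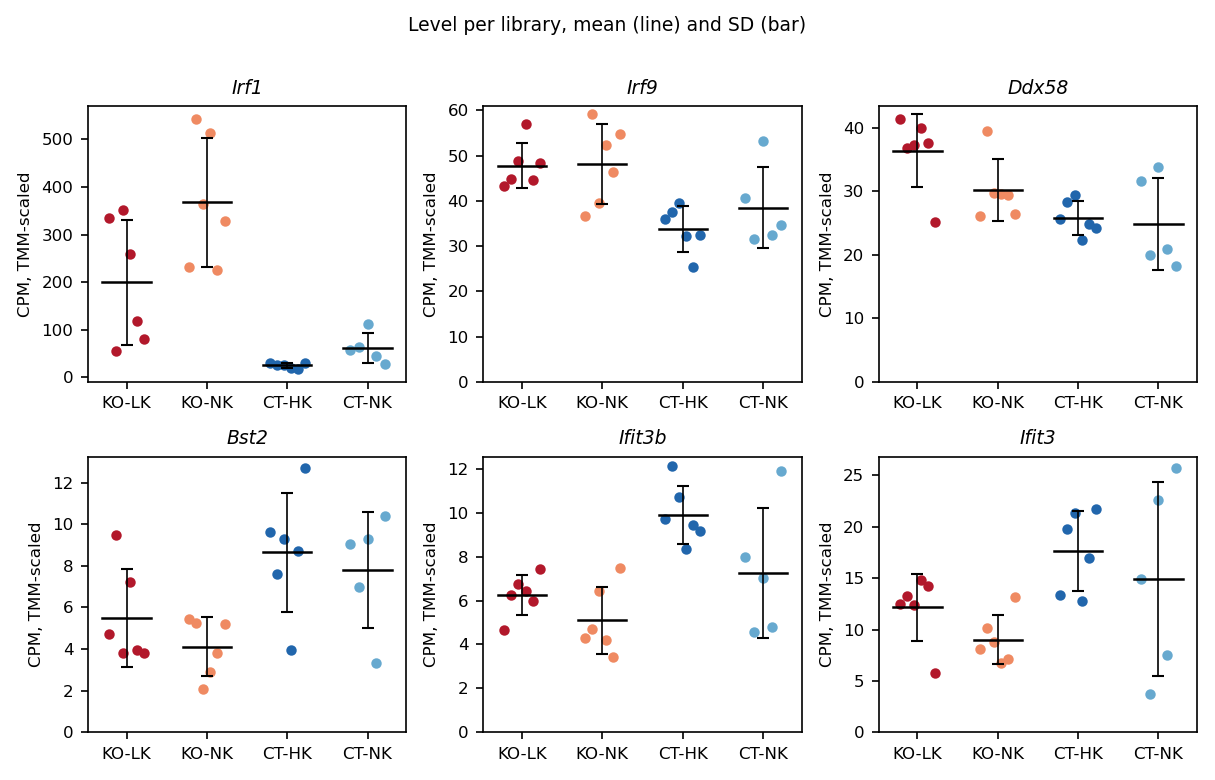
CPM per library, with group means (lines) and SD (bars), for the 5 genes called in at least 1 comparison and for Ifit3, a close copy of Ifit3b. The KO-NK points of Irf1 (226 to 543 CPM) all lie above the control points (17 to 113 CPM), whereas groups overlap in the panels of Ddx58, Bst2 and Ifit3.

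Irf9 is the DNA-binding subunit that joins STAT2 in the complex that binds ISREs. Irf9 (chr14:55603571-55610030, plus strand) had 43.4, 46.6 and 56.9 CPM in KO-LK (lowest, median, highest), 36.7, 49.4 and 59.2 CPM in KO-NK, 25.3, 34.2 and 39.6 CPM in CT-HK, and 40.6, 31.6, 53.3, 32.5 and 34.7 CPM in CT-NK. The KO-LK libraries lay above all CT-HK libraries, and the KO-NK libraries overlapped with both control groups. Irf9 was 1.42-fold higher in KO-NK than in CT-HK (log2 0.51, SE 0.15, adjusted p = 0.0379), 1.41-fold higher in KO-LK than in CT-HK (log2 0.50, adjusted p = 0.0444), and 1.33-fold higher in the mean knockout (log2 0.41, SE 0.11, adjusted p = 0.0122). Against CT-NK the log2 fold change was 0.32 in KO-NK (adjusted p = 0.412) and 0.31 in KO-LK, and neither passed edgeR's test. Limma on TPM called Irf9 as higher in both of these comparisons, and edgeR with the 5 CPM filter did so for KO-NK. The calls against CT-HK were lost with no filter on low counts (adjusted p = 0.337 and 0.343), when both proximal-rich libraries were dropped (0.0890 and 0.107), and without any 1 of CT-HK replicates 1, 5 and 6, and for KO-LK also 2 and 4 (0.0545 to 0.0989). Both were also lost with replicate number as a block (0.0639 and 0.0761). The call for the mean knockout was lost with no filter (0.165) and without the 2 proximal-rich libraries (0.0512), and it held with every library left out.

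The other transcription factors of the set were Irf7, which amplifies type I interferon production, and Stat2, the partner of Irf9. Irf7 averaged 11.4 ± 1.74 CPM in KO-LK, 6.62 ± 1.58 in KO-NK, 11.5 ± 4.90 in CT-HK and 12.6 ± 7.27 in CT-NK. The KO-NK values of Irf7 (3.65 to 8.25 CPM) lay below all KO-LK values (9.04 to 13.6 CPM), but neither that difference (log2 0.78 for KO-LK over KO-NK, adjusted p = 0.928) nor that with CT-NK (log2 -0.93 in KO-NK, adjusted p = 0.217) passed the test. Without CT-NK replicate 2, Irf7 was called as lower in KO-NK than in CT-NK. Stat2 averaged 16 ± 3.12, 13.3 ± 2.94, 14.3 ± 2.72 and 13.4 ± 3.32 CPM in KO-LK, KO-NK, CT-HK and CT-NK, and its log2 fold changes lay within -0.10 and 0.26. Limma on TPM called Stat2 as higher in KO-LK against CT-HK and in the mean knockout.

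Among the 5 nucleic acid sensors, Ddx58 was called. Ddx58 (chr4:40203773-40239828, minus strand) encodes RIG-I, the cytosolic receptor for viral RNA with free triphosphate ends. Its CPM was 25.2, 37.5 and 41.4 in KO-LK (lowest, median, highest), 26.1, 29.6 and 39.5 in KO-NK, 22.4, 25.3 and 29.5 in CT-HK, and 31.6, 20, 33.9, 21 and 18.2 in CT-NK. All groups overlapped, and 5 of the 6 KO-LK libraries lay above all control libraries. In the mean knockout Ddx58 was 1.31-fold higher (log2 0.39, SE 0.11, adjusted p = 0.0296). No single pair of groups passed edgeR's test, with log2 fold changes of 0.55 in KO-LK against CT-NK (adjusted p = 0.0941) and 0.49 in KO-LK against CT-HK (adjusted p = 0.0693). DESeq2 called both of these, as did edgeR without the leukocyte-rich libraries or without any 1 of KO-LK replicates 1, 2, 4, 5 and 6. The call in the mean knockout was lost with no filter on low counts (adjusted p = 0.231), with an offset for transcript length (0.133), without the proximal-rich libraries (0.112), without the chemosensory-rich libraries (0.0851) and without any 1 of CT-NK replicates 2, 4 and 5 (0.0607 to 0.0818).

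Ifih1 encodes MDA5, the receptor for long double-stranded RNA, and averaged 12.7 ± 2.66 CPM in KO-LK, 10.9 ± 2.29 in KO-NK, 9.58 ± 1.31 in CT-HK and 9.95 ± 2.19 in CT-NK (log2 0.27 in the mean knockout, adjusted p = 0.226). Eif2ak2 encodes PKR, which halts translation when it binds double-stranded RNA, and averaged 24 ± 4.36, 27.9 ± 10.9, 25.3 ± 5.49 and 21.6 ± 3.98 CPM in KO-LK, KO-NK, CT-HK and CT-NK. Limma on TPM called Eif2ak2 and Ifih1 as higher in KO-NK against CT-HK and in the mean knockout. It also called Eif2ak2 in KO-NK against CT-NK, and Ifih1 in KO-LK against both control groups. Dhx58 (LGP2, a regulator of RIG-I and MDA5) and Zbp1 (a sensor of Z-form nucleic acid) averaged 2.66 and 1.46 CPM over all libraries, and no edgeR comparison called either.

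The 4 Ifit genes encode proteins that bind foreign 5′ ends of RNA and sit beside each other on chromosome 19. Ifit3b (chr19:34607970-34613401, plus strand) had 4.65, 6.35 and 7.43 CPM in KO-LK (lowest, median, highest), 3.44, 4.5 and 7.49 CPM in KO-NK, 8.33, 9.57 and 12.1 CPM in CT-HK, and 7.98, 4.55, 7.04, 4.80 and 11.9 CPM in CT-NK. Every CT-HK library lay above every knockout library, while CT-NK overlapped with both knockout groups. Ifit3b was lower in KO-NK than in CT-HK (log2 -0.96, SE 0.23, adjusted p = 0.0119) and lower in the mean knockout (log2 -0.59, SE 0.17, adjusted p = 0.0219). The first call was lost with limma on TPM (log2 -0.33, adjusted p = 0.110). The second was lost with limma on TPM (-0.09, adjusted p = 0.550), without the proximal-rich libraries (-0.47, adjusted p = 0.0872) and without CT-NK replicate 5 (-0.46, adjusted p = 0.0736).

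Ifit3 and Ifit3b are close copies, so the split of reads between them is treated as uncertain. Only the promoter stretches above were compared, and not the transcripts from which reads come. Ifit3 averaged 12.2 ± 3.28 CPM in KO-LK, 9.04 ± 2.40 in KO-NK, 17.7 ± 3.93 in CT-HK and 14.9 ± 9.43 in CT-NK, and did not pass the test (log2 -0.97 in KO-NK against CT-HK, adjusted p = 0.0898; log2 -0.63 in the mean knockout, adjusted p = 0.0977). Their counts were therefore also summed, a choice made after seeing the data. The sum averaged 18.4 ± 2.90 CPM in KO-LK, 14.1 ± 3.77 in KO-NK, 27.6 ± 4.76 in CT-HK and 22.2 ± 12.1 in CT-NK, and it was lower in KO-NK than in CT-HK (log2 -0.96, adjusted p = 0.0274) and lower in the mean knockout (log2 -0.61, adjusted p = 0.0354). Ifit1, which averaged 7.89 ± 1.61 CPM in KO-LK, 4.17 ± 2.34 in KO-NK, 5.52 ± 1.61 in CT-HK and 7.20 ± 4.37 in CT-NK, and Ifit2, with 6.19 ± 1.75, 4.55 ± 1.69, 4.92 ± 1.71 and 4.42 ± 3.19 CPM in the same groups, were not called by edgeR or DESeq2. Limma on TPM called Ifit1 as higher in KO-LK against CT-HK.

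The 6 oligoadenylate synthetase genes belong to a family whose enzymes make short adenylate chains in answer to double-stranded RNA, though not every member does. EdgeR called 0 of the 6 in the 7 comparisons, with 0 to 2 of them under an unadjusted p of 0.05 in any comparison. DESeq2 also called 0. Limma on TPM called Oas1a, Oas1g and Oasl2 in KO-LK against CT-HK and Oas1a in the mean knockout. The shares of all genes it called there were 36.0 and 41.3 percent. Oasl2 averaged 10.4 ± 1.75 CPM in KO-LK, 7.76 ± 2.57 in KO-NK, 8.57 ± 1.94 in CT-HK and 10.9 ± 6.10 in CT-NK. Oas1a averaged 6.47 ± 1.87, 4.16 ± 0.938, 3.76 ± 0.556 and 5.4 ± 3.8 CPM in KO-LK, KO-NK, CT-HK and CT-NK. Its close copy Oas1g, from which reads may not be told apart, averaged 2.11 ± 0.707 CPM in KO-LK and 0.989 ± 0.452 CPM in KO-NK, with the highest log2 fold change of the set between the knockout diets (1.10, SE 0.37, unadjusted p of 0.00695, adjusted p = 0.928). Oas2, Oas3 and Oasl1 averaged 1.86, 1.32 and 2.57 CPM over all libraries.

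The antiviral GTPases comprised Mx1 and Mx2, which trap viral particles, and the guanylate-binding proteins Gbp2, Gbp3 and Gbp7, which coat the vacuoles of intracellular pathogens. None of the 5 was called by edgeR, where 0 or 1 had an unadjusted p under 0.05 in any comparison, or by DESeq2. Limma on TPM called Gbp2 and Gbp3 in KO-LK against CT-HK and Gbp7 in the mean knockout, beside 36.0 and 41.3 percent of all genes. Gbp2 had 6.09, 8.78 and 29.9 CPM in KO-LK (lowest, median, highest), 4.08, 5.73 and 12.4 CPM in KO-NK, 3.86, 5.36 and 9.03 CPM in CT-HK, and 4.04, 4.73, 29.4, 8.04 and 8.28 CPM in CT-NK. A single library in KO-LK (replicate 4) and a single library in CT-NK (replicate 3) held the 2 high values. Gbp7 averaged 9.34 ± 2.26 CPM in KO-LK, 8.82 ± 1.78 in KO-NK, 7.45 ± 2.14 in CT-HK and 8.71 ± 3.90 in CT-NK, and Gbp3 5.74 ± 1.49, 3.66 ± 1.73, 3.87 ± 1.44 and 5.10 ± 3.45 CPM. Mx1 and Mx2 averaged 1.09 and 1.04 CPM over all libraries, and their intervals in the mean knockout were wide (log2 -0.32 to 1.30 for Mx1 and -0.11 to 1.45 for Mx2).

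Isg15 is a ubiquitin-like protein that is attached to other proteins by Herc6 and taken off by Usp18, and Trim25 is a ubiquitin ligase that acts on RIG-I. Isg15 (chr4:156199424-156200818, minus strand), named after its values were seen, had 0.569, 0.877 and 1.53 CPM in KO-LK (lowest, median, highest), 0.226, 0.679 and 0.783 CPM in KO-NK, 0.812, 1.11 and 2.29 CPM in CT-HK, and 0.743, 1.08, 2.84, 0.913 and 1.98 CPM in CT-NK. All KO-NK libraries lay below all CT-HK libraries and overlapped with CT-NK through its lowest library alone. The log2 fold change of Isg15 was -1.27 (SE 0.41, adjusted p = 0.135) in KO-NK against CT-NK, -1.13 in KO-NK against CT-HK (adjusted p = 0.103) and -0.87 in the mean knockout (SE 0.28, adjusted p = 0.0501), none of which passed. DESeq2 called Isg15 as lower in KO-NK against CT-HK and in the mean knockout. In the mean knockout edgeR did so with DESeq2's size factors, without the chemosensory-rich libraries and without any 1 of KO-LK replicate 2, CT-HK replicates 4 and 5 and CT-NK replicates 1, 2 and 4.

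Trim25 averaged 33.8 ± 11.9 CPM in KO-LK, 33.3 ± 8.91 in KO-NK, 26.1 ± 7.47 in CT-HK and 35.7 ± 13.2 in CT-NK. Herc6 averaged 11.8 ± 2.72, 10.3 ± 1.73, 11.1 ± 2.55 and 9.46 ± 2.27 CPM and Usp18 8.79 ± 1.49, 6.18 ± 1.87, 8.39 ± 3.02 and 6.80 ± 3.55 CPM in KO-LK, KO-NK, CT-HK and CT-NK. The log2 fold change of these 3 genes in the mean knockout was 0.14, 0.11 and -0.03, and edgeR called none of them in any comparison. Limma on TPM called all 3 as higher in KO-LK against CT-HK and in the mean knockout, beside 36.0 and 41.3 percent of all genes. It also called Herc6 and Usp18 in KO-LK against CT-NK and Trim25 in KO-NK against CT-HK.

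Bst2 encodes tetherin, a membrane protein that holds budding viruses on the cell surface. Bst2 (chr8:71534255-71537456, minus strand) had 3.81, 4.35 and 9.47 CPM in KO-LK (lowest, median, highest), 2.08, 4.53 and 5.46 CPM in KO-NK, 3.95, 8.98 and 12.7 CPM in CT-HK, and 9.05, 6.98, 9.28, 3.33 and 10.4 CPM in CT-NK. KO-NK overlapped with each control group through a single low control library, CT-HK replicate 4 and CT-NK replicate 4. Bst2 was lower in KO-NK than in CT-HK (log2 -1.07, SE 0.32, adjusted p = 0.0487) and lower in the mean knockout (log2 -0.79, SE 0.23, adjusted p = 0.0273), and did not pass in KO-NK against CT-NK (log2 -0.92, adjusted p = 0.199). The first call was lost in 7 of 11 alternative settings (adjusted p up to 0.184) and without any 1 of KO-NK replicates 2 to 6 and CT-HK replicates 1, 2, 3, 5 and 6 (0.0635 to 0.133). The second was lost with limma on TPM (log2 -0.26, adjusted p = 0.224), without the proximal-rich libraries (0.119), without the leukocyte-rich libraries (0.0662) and without any 1 of KO-LK replicates 1, 3, 5 and 6, KO-NK replicates 4 and 5, CT-HK replicate 6 and CT-NK replicates 1 and 5 (0.0505 to 0.0678).

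The other 8 effectors were not called by edgeR or DESeq2 in any comparison, apart from the calls of Ifi27, Ifi35, Parp14 and Rtp4 in the other edgeR settings given above. In KO-LK against CT-HK limma on TPM called Ifi27, Ifi44, Parp14, Rtp4 and Xaf1 as higher, and in the mean knockout Cmpk2, Ifi27, Rsad2 and Xaf1. Of all genes it called 36.0 and 41.3 percent in these comparisons. Ifi27 averaged 56.2 ± 9.46 CPM in KO-LK, 42.6 ± 11.9 in KO-NK, 46.3 ± 7.78 in CT-HK and 48.5 ± 10.3 in CT-NK, and Ifi35, a partner of the interferon-induced protein Nmi, 31.2 ± 4.93, 30.5 ± 6.38, 38.5 ± 10.8 and 33.9 ± 7.68 CPM. Rsad2 (viperin, which makes a chain-terminating nucleotide) averaged 29.8 ± 7.37, 27 ± 11.1, 29.9 ± 7.81 and 23.3 ± 13.8 CPM in KO-LK, KO-NK, CT-HK and CT-NK. Cmpk2, its neighbour on chromosome 12 and a nucleotide kinase, averaged 8.73 ± 2.12, 8.26 ± 1.23, 7.67 ± 2.52 and 7.34 ± 4.58 CPM. Rsad2 and Cmpk2 had log2 fold changes of 0.11 and 0.18 in the mean knockout, with 95% intervals of -0.35 to 0.56 and -0.28 to 0.64.

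Parp14, an ADP-ribosyltransferase, averaged 12.1 ± 1.76 CPM in KO-LK, 10.9 ± 2.65 in KO-NK, 7.61 ± 0.858 in CT-HK and 12 ± 6.63 in CT-NK, with a log2 fold change of 0.67 in KO-LK against CT-HK (adjusted p = 0.118). Every KO-LK library of Parp14 (9.88 CPM or more) lay above every CT-HK library (8.89 CPM or less). Rtp4, which binds a helicase of viral replication, averaged 10.8 ± 2.55, 6.25 ± 2.75, 6.79 ± 2 and 11 ± 6.49 CPM in KO-LK, KO-NK, CT-HK and CT-NK. Xaf1, a promoter of apoptosis, and Ifi44 averaged 8.20 and 10.7 CPM over all libraries, with log2 fold changes of 0.03 and -0.02 in the mean knockout.

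The 4 antigen presentation genes were not called by edgeR. Limma on TPM called all 4 as higher in KO-LK against CT-HK, Psmb8 in KO-LK against CT-NK, and Psmb8 and Tap1 in the mean knockout. It called 36.0, 24.3 and 41.3 percent of all genes tested in these comparisons. Of those calls 96.6, 95.6 and 95.6 percent were higher. B2m averaged 142 ± 34.5 CPM in KO-LK, 127 ± 34.9 in KO-NK, 142 ± 50.6 in CT-HK and 175 ± 50.2 in CT-NK. Psmb8, an immunoproteasome subunit, averaged 35.7 ± 13.4, 22.4 ± 5.76, 27.3 ± 7.08 and 30.3 ± 9.90 CPM in KO-LK, KO-NK, CT-HK and CT-NK, and Psmb9, the neighbour of Tap1 on chromosome 17, 13 ± 5.57, 9.80 ± 3.83, 12.4 ± 3.26 and 11.9 ± 3.90 CPM. Tap1 averaged 23.3 ± 7.67 CPM in KO-LK, 16.9 ± 4.60 in KO-NK, 18.2 ± 3.17 in CT-HK and 21.1 ± 9.95 in CT-NK. In the mean knockout the log2 fold changes ran from -0.23 (B2m) to 0.02 (Tap1). EdgeR had 0 of the 4 under an unadjusted p of 0.05 in that comparison and 1, Psmb8, in KO-LK against KO-NK, and DESeq2 called 0 in both.

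Libraries of a group also differed across the set as a whole. CT-NK replicate 3 held the highest value of all 23 libraries for 13 of the 41 genes and lay above the mean of the gene for 39 of them, with a median deviation of 0.62 on the log2 scale. KO-LK replicate 4 was highest for 6 genes, with a median deviation of 0.46, and CT-NK replicate 2 was lowest for 9, with a median deviation of -0.46. CT-NK therefore held both the library with the highest and the library with the lowest median deviation.

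**Figure D4:**
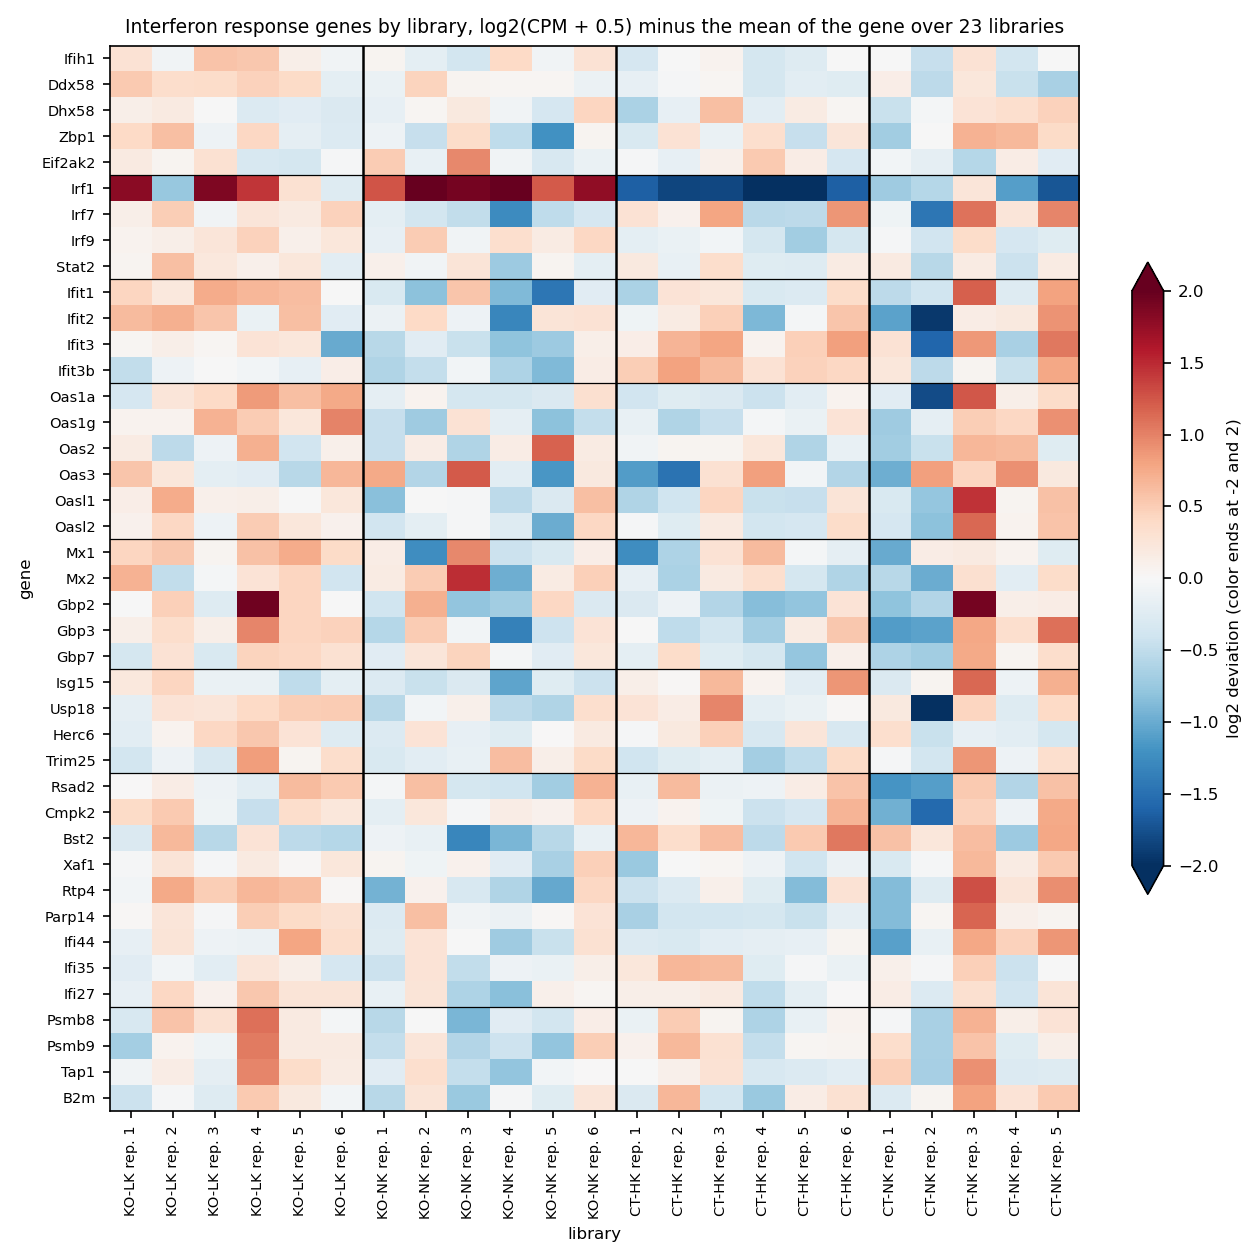
Log2(CPM + 0.5) of each interferon response gene in each library, minus the mean of the gene over the 23 libraries, with genes grouped by role and libraries by group. In the row of Irf1 every KO-NK library lies above every control library, while KO-LK overlaps with CT-NK, and the column of CT-NK replicate 3 is above the mean for 39 of the 41 genes.

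Markers of leukocytes and macrophages, which respond strongly to interferon, were highest in the same libraries. Summed over 30 markers, they came to 173 to 351 CPM in KO-LK (median 286), 94.4 to 295 CPM in KO-NK (median 154), 141 to 266 CPM in CT-HK (median 201) and 114 to 407 CPM in CT-NK (median 241), with 407 CPM in CT-NK replicate 3 and 351 CPM in KO-LK replicate 4. All 30 markers were detected in each group, and the neutrophil markers S100a8 and Ly6g were at 0 in at least 1 library of every group. Of the 29 markers tested, edgeR called 0 in either direction in each of the 7 comparisons, with 0 to 4 under an unadjusted p of 0.05, and their median log2 fold change was -0.05 in KO-NK against CT-NK, 0.13 in KO-LK against CT-NK, -0.05 in KO-NK against CT-HK, 0.34 in KO-LK against CT-HK and 0.42 in KO-LK against KO-NK, where the median of the 41 genes was -0.21, 0.13, -0.10, 0.33 and 0.32. Without CT-NK replicate 3 and KO-LK replicate 4, Irf1 was still higher in KO-NK than in CT-NK (log2 2.83, adjusted p = 0.00213) and in KO-LK than in CT-NK (log2 1.98, adjusted p = 0.0270), and Ddx58 was also called in KO-LK against CT-NK. The part of leukocytes in the level of Irf1 or of the other genes was not tested, since leukocyte markers were also counted in the libraries kept.

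Genes of the pathway outside the set were read from lists of receptors, JAK-STAT and feedback genes, nucleic acid sensing, GTPases, antigen presentation and other interferon-induced genes. With the interferons they came to 146 genes, of which 124 were tested. In KO-NK against CT-NK 1 of the 124 rose and none fell, in KO-LK against CT-NK 1 rose and none fell, in KO-NK against CT-HK 2 rose and 3 fell, in KO-LK against CT-HK 6 rose and 2 fell, and in the mean knockout 8 rose and 5 fell. These are 0.806, 0.806, 4.03, 6.45 and 10.5 percent of the 124, beside 1.70, 2.04, 5.78, 5.49 and 10.5 percent of all genes. Their medians were -0.11, 0.06, 0.00, 0.17 and 0.02 in these comparisons, beside 0.15, -0.04, 0.21, -0.01 and 0.09 over all genes. None of the 124 was called by edgeR in either diet comparison, in which 9 (CT-HK against CT-NK) and 7 (KO-LK against KO-NK) had an unadjusted p under 0.05, and DESeq2 called 0 of them.

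Stat3, a transcription factor that interleukin 6 family cytokines activate, rose in all 5 knockout comparisons. Its CPM was 199, 289 and 337 in KO-LK (lowest, median, highest), 209, 280 and 325 in KO-NK, 139, 173 and 219 in CT-HK, and 203, 130, 199, 156 and 117 in CT-NK. The KO-LK libraries overlapped with the controls through a single low library, and all KO-NK libraries lay above all CT-NK libraries. The log2 fold change was 0.72 in KO-NK against CT-NK (adjusted p = 0.0360), 0.81 in KO-LK against CT-NK (0.0143), 0.60 in KO-NK against CT-HK (0.0329), 0.68 in KO-LK against CT-HK (0.0147) and 0.70 in the mean knockout (0.000361). Of these calls, the last held in every alternative and with every library left out. In KO-NK against CT-NK the call was lost in 4 of 11 alternatives (adjusted p up to 0.255) and without any 1 of CT-NK replicates 2, 4 and 5 (0.0800 to 0.146). It was lost in KO-LK against CT-NK in 2 of 11 (up to 0.0941) and without CT-NK replicate 5 (0.0675). In KO-NK against CT-HK it was lost in 3 of 11 (up to 0.263) and without any 1 of CT-HK replicates 4, 5 and 6 (0.0508 to 0.0769), and in KO-LK against CT-HK with no filter (0.112).

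Socs3, the feedback inhibitor that Stat3 induces, had 9.74, 32 and 92.1 CPM in KO-LK (lowest, median, highest), 30.5, 45.1 and 63.8 CPM in KO-NK, 0.447, 2.81 and 8.26 CPM in CT-HK, and 7.06, 23.4, 1.72, 0.594 and 0.694 CPM in CT-NK. All knockout libraries lay above all CT-HK libraries, and all KO-NK libraries lay above all CT-NK libraries. Socs3 rose in KO-NK against CT-HK (log2 3.74, SE 0.81, adjusted p = 0.00552), in KO-LK against CT-HK (log2 3.56, adjusted p = 0.00765) and in the mean knockout (log2 3.16, SE 0.58, adjusted p = 0.000633), and these 3 calls held in every alternative and with every library left out. Neither comparison with CT-NK passed for Socs3, with log2 fold changes of 2.77 in KO-NK (SE 0.83, adjusted p = 0.0989) and 2.58 in KO-LK (adjusted p = 0.113). Ptpn2, a phosphatase that ends STAT signalling, and Ifnar1, a chain of the type I interferon receptor, rose in the mean knockout by 0.45 (adjusted p = 0.00574) and 0.36 (adjusted p = 0.0221) on the log2 scale. The Ifnar1 call was lost with no filter (adjusted p = 0.259), without the proximal-rich libraries (0.0863) and without CT-NK replicate 4 or 5 (0.0533 and 0.0618), and the Ptpn2 call was lost with no filter (0.0981).

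**Figure D5:**
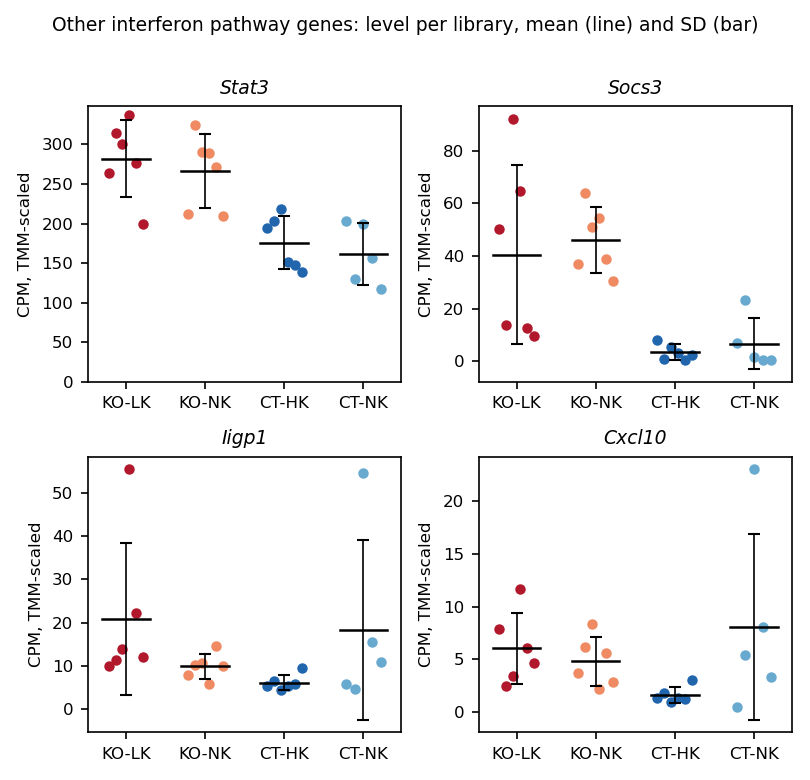
CPM per library, with group means (lines) and SD (bars), for Stat3, Socs3, Iigp1 and Cxcl10. All KO-NK points of Stat3 and Socs3 lie above all CT-NK points, and the highest CT-NK point of Iigp1 (54.7 CPM) and of Cxcl10 (23 CPM) is the same library, replicate 3.

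Among the other pathway genes that rose, Tmem173 (STING, which relays the sensing of DNA) did so in KO-LK against CT-HK (log2 0.89, adjusted p = 0.0229) and in the mean knockout (0.55, adjusted p = 0.0376), and Traf3 (an adaptor of interferon induction) and Dtx3l (a ubiquitin ligase) in KO-LK against CT-HK (0.52 and 0.62, adjusted p = 0.0432 and 0.0469), and Dtx3l also in the mean knockout (0.48, adjusted p = 0.0195). Iigp1, an immunity-related GTPase, rose in KO-LK against CT-HK (log2 1.78, SE 0.50, adjusted p = 0.0332). Its mean was 20.8 ± 17.6 CPM in KO-LK, 9.85 ± 2.93 in KO-NK, 6.04 ± 1.77 in CT-HK and 18.2 ± 20.8 in CT-NK, and single libraries of KO-LK (replicate 4, 55.5 CPM) and CT-NK (replicate 3, 54.7 CPM) were far above the rest. The Iigp1 call was lost without KO-LK replicate 4 or any 1 of CT-HK replicates 1 to 5 (adjusted p 0.0545 to 0.0962), without the chemosensory-rich libraries (0.0774) and with replicate number as a block (0.0902). The Traf3 and Dtx3l calls were lost in 5 of 11 alternatives each, without any 1 of CT-HK replicates 1, 3, 4, 5 and 6 for Traf3 (0.0645 to 0.0841) and without any 1 of the 6 CT-HK libraries for Dtx3l (0.0666 to 0.0990). In the mean knockout the Dtx3l call was lost with no filter (0.121), without the proximal-rich libraries (0.0666) and without CT-NK replicate 5 (0.0506). Tmem173 lost its call in KO-LK against CT-HK without CT-HK replicate 6 (0.0536) and in the mean knockout without any 1 of CT-HK replicates 1 and 6 and CT-NK replicates 2, 4 and 5 (0.0524 to 0.0800), and both with no filter (0.0933 and 0.156) and without the proximal-rich libraries (0.0699 and 0.110). The call of Tmem173 in the mean knockout was also lost without the chemosensory-rich libraries (0.0629) and with replicate number as a block (0.0572).

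Pathway genes that fell were Trim14, an adaptor of mitochondrial antiviral signalling, Plscr2, a phospholipid scramblase, and Ifitm2, a membrane protein that blocks virus entry. Trim14 averaged 6.64 ± 1.13 CPM in KO-LK, 7.02 ± 1.69 in KO-NK, 12.5 ± 3.16 in CT-HK and 10.7 ± 3.11 in CT-NK, with a log2 fold change of -0.83 in KO-NK against CT-HK (adjusted p = 0.0185), -0.91 in KO-LK against CT-HK (0.00971) and -0.76 in the mean knockout (0.00166). Plscr2 averaged 184 ± 26.5, 184 ± 41.3, 290 ± 52.4 and 241 ± 20.9 CPM in KO-LK, KO-NK, CT-HK and CT-NK, with log2 fold changes of -0.65 for both knockout groups set against CT-HK (adjusted p = 0.00929 and 0.00911) and -0.52 in the mean knockout (adjusted p = 0.00232). Ifitm2 fell in KO-NK against CT-HK (-0.58, adjusted p = 0.0356) and in the mean knockout (-0.43, adjusted p = 0.0196), and Psme2, a proteasome activator, in the mean knockout (-0.40, adjusted p = 0.0451). Single libraries and settings decided some of these calls. Trim14 in KO-NK against CT-HK lost its call without CT-HK replicate 1 or 2 (adjusted p = 0.0575 and 0.0548) or the chemosensory-rich libraries (0.0618) and with an offset for transcript length (0.143). Plscr2 in KO-LK against CT-HK lost it without any 1 of KO-LK replicates 1, 3, 4, 5 and 6 (up to 0.0785), with no filter (0.0592) and without the leukocyte-rich libraries (0.0682). In KO-NK against CT-HK Plscr2 lost it with no filter (0.0503). Ifitm2 in KO-NK against CT-HK lost it without any 1 of KO-NK replicates 1, 3, 4 and 5 and CT-HK replicates 1, 2, 3 and 5 (0.0505 to 0.104). It was also lost there with no filter (0.118), with the length offset (0.0975) and without the leukocyte-rich libraries (0.0667). In the mean knockout Ifitm2 lost it with no filter (0.0701), with the length offset (0.0606) and without the leukocyte-rich libraries (0.0866). Psme2 lost its call with 17 of the 23 libraries left out singly (0.0545 to 0.116), with no filter (0.125), with the length offset (0.123) and without the proximal-rich (0.0834) or leukocyte-rich libraries (0.126). On the TPM scale Trim14 and Plscr2 kept their sign and were not called (log2 -0.21 and -0.08 in the mean knockout), and the sign of Ifitm2 and Psme2 turned (0.06 and 0.09). Irf2, a repressor of Irf1 targets, rose (0.40, adjusted p = 0.0237) and Shisa5 fell (-0.37, adjusted p = 0.0320) in the mean knockout, both named after their values were seen and not refitted under the alternatives.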

How the data were processed

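Per the labels, RNA of microdissected tubules was extracted and turned into cDNA with SMART-Seq HT, and libraries were made with Nextera XT. Per the submitters' processing notes, Salmon (version listed as 0.14.10) and GRCm38.p6 were used. The authors deposited expected counts per gene, of which 35.9% were not whole, and TPM, whose length scaling carries the share of other transcripts into each value. All 54393 gene IDs matched a GENCODE M21 entry, which gave symbols and coordinates. The 41 genes, the pathway and marker lists and the tests were chosen with earlier results of these data known. Among 55 pairs of libraries within groups none was a duplicate.

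In R 4.3.3, edgeR 4.0.16 was run on the expected counts after rounding, with TMM factors, filterByExpr and a mean for each group fitted to all 23 libraries (19 residual degrees of freedom, common biological coefficient of variation 0.56), quasi-likelihood F tests and Benjamini-Hochberg adjustment over 25829 genes at 0.05. Where no other tool is named, an adjusted p is from these tests. Log2 fold changes carry edgeR's prior count, and sums of markers are TMM-scaled CPM. The rule for named genes took every called gene of the set, the 2 of highest mean CPM in each role, and up to 4 called genes of smallest p per pathway list and comparison; further genes of the set are given for completeness. Some called genes of the pathway lists are counted but not reported by name here. Alternatives comprised DESeq2 1.42.0, edgeR with size factors of DESeq2, omission of the filter, a filter of 5 CPM in 5 libraries, limma 3.58.1 on log2(TPM + 1) for genes of at least 1 TPM in 5 libraries, replicate number as a block, an offset for transcript length, only the groups compared, and leaving out libraries singly, the 2 richest in proximal tubule or in leukocyte markers, or those above 2500 CPM of chemosensory receptor genes. The pipeline was tested on simulated counts. Replicate numbers are not stated to pair the mice.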

Additional observations from a re-analysis of the deposited data

Results flagged for a closer look

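In 15 of 164 sets of libraries examined (9.15%, with each gene of the set in each group), the highest or lowest library lay apart from the rest by Dixon's 95% criterion. Chance gives about 1 in 20 for normally distributed values. The criterion was applied to CPM without a log, so the share flagged cannot show an excess over chance. Values are in CPM, and no explanation was tested. KO-LK replicate 4 was high for Gbp2 (29.9, next 10.5), Gbp3 (8.54, next 5.82) and Psmb9 (23.4, next 12.7), and KO-LK replicate 2 for Oasl1 (4.26, next 2.82). KO-LK replicate 6 was low for Ddx58 (25.2, next 36.8) and Ifit3 (5.76, next 12.4). KO-NK replicate 4 was low for Irf7 (3.65, next 6.53) and Isg15 (0.226, next 0.615), KO-NK replicate 2 was high for Ddx58 (39.5, next 29.8), and KO-NK replicate 5 was high for Oas2 (4.57, next 2.02). CT-HK replicate 3 was high for Usp18 (14.2, next 8.62), and CT-HK replicate 6 for Trim25 (40.2, next 26.8), Cmpk2 (12.5, next 7.98) and Ifi44 (10.6, next 9.05). CT-NK replicate 3 was high for Gbp2 (29.4, next 8.28).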

How the results depend on the processing

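The count of called genes of the set moved by more than 1.5 times in these settings. With no filter it was 2 in KO-NK against CT-HK, 1 in KO-LK against CT-HK and 3 in the mean knockout. Over all genes 799, 825 and 1692 of 51822 were called in these comparisons, where the fit with the filter called 1494, 1418 and 2721 of 25829. With the filter of 5 CPM, which tested fewer genes, it was 3 in KO-NK against CT-NK, 2 in KO-LK against CT-NK, 6 in KO-LK against CT-HK and 8 in the mean knockout. DESeq2 gave 2 in KO-LK against CT-NK and 4 in KO-LK against CT-HK, and limma on TPM gave 3, 7, 9, 23 and 17 in the 5 knockout comparisons. The shares of all genes called with the 5 CPM filter, DESeq2 and limma stand in the Results. With only the groups compared it was 0 in KO-LK against CT-NK and 9 in KO-LK against CT-HK, beside 791 of 22432 and 2910 of 20936 genes. Without the proximal-rich libraries it was 0 in KO-LK against CT-NK, 2 in KO-NK against CT-HK, 1 in KO-LK against CT-HK and 1 in the mean knockout. Over all genes 422, 1278, 1143 and 1889 of 26968 were then called in these comparisons. In KO-LK against CT-NK it was 2 without the leukocyte-rich and 0 without the chemosensory-rich libraries, beside 432 of 26710 and 624 of 23628 genes. Leaving out each library gave 1 to 2 in KO-NK against CT-NK, 0 to 2 in KO-LK against CT-NK, 2 to 4 in KO-NK against CT-HK, 1 to 3 in KO-LK against CT-HK, 2 to 6 in the mean knockout and 0 in both diet comparisons. Over all genes it gave 233 to 919, 296 to 736, 1058 to 1929, 1080 to 1717 and 2041 to 3742 in the 5 knockout comparisons. It gave 0 to 169 in CT-HK against CT-NK and 0 to 3 in KO-LK against KO-NK. Replicate number as a block gave 2 in KO-NK against CT-HK and 1 in KO-LK against CT-HK, with 1, 1 and 5 in the other knockout comparisons. It ended the calls of Irf9 (adjusted p = 0.0639 and 0.0761) and Bst2 (0.0685) there. In KO-LK against CT-HK it ended the calls of the pathway genes Iigp1 (0.0902), Traf3 (0.108) and Dtx3l (0.0567). In the mean knockout it ended those of Tmem173 (0.0572) and Psme2 (0.0607). Of 33 same-numbered pairs of libraries, 10 correlated above 0.1 (range -0.702 to 0.711). Pairs with different numbers were not compared, so these values cannot decide whether the numbers pair the libraries. Signs turned with limma on TPM for Ifitm2 in KO-NK against CT-HK (0.00) and in the mean knockout (0.06) and for Psme2 in the mean knockout (0.09). Over all genes, calls in KO-NK against CT-NK numbered 439, against 186 with no filter, 2462 with the 5 CPM filter, 1150 with DESeq2 and 3438 with limma on TPM. Apart from the number of genes or libraries left, the cause of these shifts was not tested. Genes near 1 CPM, such as Mx2 and Isg15, had intervals too wide to show changes of the size seen for Irf9.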
